A study of Mus musculus with 60 samples.

Results

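The complement and coagulation proteins that hepatocytes secrete into plasma were followed in primary mouse hepatocytes labelled as lacking or carrying the receptor Met, before and during treatment with hepatocyte growth factor (HGF). The set held 37 genes, listed by name from knowledge of the pathways and with earlier results of these data known. They were matched to the array by the symbol or an older alias in the platform annotation. Of these, 33 had a probe on the array, 1 probe per gene, and 28 were measured widely enough to be tested. The array held 21997 probes in all, of which 14580 were tested, and these covered 10074 named genes. No probe was matched to C3, C8a, C8b or Cpb2. The KO hepatocytes carried Alb-Cre +/-; Met Fl/Fl, in which Cre driven by the albumin promoter deletes Met in hepatocytes, and their strain was labelled 129SV/C57BL6. The WT hepatocytes were labelled as a Cre control, a part of them as heterozygous for Cre recombinase, with the strain C57BL. All mice were males of 9 to 10 weeks. The cells were plated, kept in serum-free medium and from the next day left untreated or exposed to HGF, with harvests after 0.5, 2, 12 and 24 h of HGF and 3 replicates from 3 individual mice in each of the 10 groups. The p-values thus rest on the spread between these cultures, taken as 1 shared spread per probe over all 10 groups. The groups differed in spread, with a median probe SD of 0.26 in WT at 24 h and 0.23 in untreated WT. In WT at 2 h it was 0.12. An SE or p-value can therefore be too small for the groups with the wider spread. The labels give the dose of HGF as 50 ng/ml in one place and as 50 nM in another. The treatment field of the 12 h samples states 0.5 h, and the time in their titles was used here. Strain and genotype changed together and cannot be told apart. Untreated cells were analysed at a single time, so HGF and time in culture cannot be told apart either.

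The complement system is a cascade of plasma proteases and binding proteins that marks and lyses microbes. It is started by the classical, lectin and alternative pathways and ends in a pore, the membrane attack complex. Coagulation is a parallel cascade in which factors activate each other down to thrombin, which turns fibrinogen into fibrin, while antithrombin, protein C and the plasmin system limit and dissolve the clot. Hepatocytes make most of these proteins, many of which change in the acute phase response and some of which need vitamin K for a modification made in the liver.

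Each replicate was read on 2 arrays with exchanged dyes, 60 arrays in all, against pooled WT hepatocyte RNA. Every value below is a log2 ratio of the sample to that pool, averaged over both arrays, and a replicate with a value on 1 dye only was left out for that gene. A level of 0 thus equals the pool, and the levels of different genes cannot be set against each other. Fewer cells of a type and less RNA per cell cannot be told apart in such bulk samples. The sources do not state which RNA was the numerator, and the deposited ratios were taken as sample over pool on both dyes. As deposited, 23 of the 30 dye pairs correlated negatively (r = -0.677 to 0.186), so directions hold only if that reading is right. The Cy5 array of WT untreated replicate 3 correlated below -0.3 with 19 others of its dye and has no settled direction. Array SDs ranged from 0.287 to 1.39, the widest on the Cy3 array of KO 24 h replicate 2. The values below were not scaled for this unless stated otherwise. The database numbers in the array titles fell into 4 ranges, A to D, which no label calls a batch. Range D held all replicates of 0.5 h and all but 1 of 2 h, range C held all of 12 h, and those of untreated cells and of 24 h were spread over ranges A, B and C. Of WT 24 h replicate 2, the Cy5 array lay in range C and the Cy3 array in range B, and the replicate was counted with C unless stated otherwise. The Met probe was not called between KO and WT at any time (differences of -0.034 to 0.30), and whether it lies in the deleted part was not determined here, so it checks no label.

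RefSeq promoter windows (GRCm38.p6, from 250 bases before to 50 bases after the start) were found for 29 of the 37 members. Fibrinogen is shown because its 3 chains lie side by side on chromosome 3 and only Fga and Fgg were called in WT at 24 h. C9 and Ahsg are shown for large falls, and F10 because it was called in more comparisons than any other member. Capitals mark matches on either strand to 4 motifs of liver and acute phase factors: GTTAAT (HNF1), CAAAGT (HNF4), TTGCNNAA (C/EBP) and TTCNNNGAA (STAT). The windows are at chr3:83025903-83026202, plus strand for Fga, chr3:83049814-83050113, minus strand for Fgb, chr3:83007474-83007773, plus strand for Fgg, chr15:6445096-6445395, plus strand for C9, chr16:22891765-22892064, plus strand for Ahsg and chr8:13037058-13037357, plus strand for F10.
Fga: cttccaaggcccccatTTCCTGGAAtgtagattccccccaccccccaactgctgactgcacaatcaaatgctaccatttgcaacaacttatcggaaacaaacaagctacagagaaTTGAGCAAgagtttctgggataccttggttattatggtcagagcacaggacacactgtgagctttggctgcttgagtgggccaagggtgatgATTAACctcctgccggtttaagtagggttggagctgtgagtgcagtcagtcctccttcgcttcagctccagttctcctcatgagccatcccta
Fgb: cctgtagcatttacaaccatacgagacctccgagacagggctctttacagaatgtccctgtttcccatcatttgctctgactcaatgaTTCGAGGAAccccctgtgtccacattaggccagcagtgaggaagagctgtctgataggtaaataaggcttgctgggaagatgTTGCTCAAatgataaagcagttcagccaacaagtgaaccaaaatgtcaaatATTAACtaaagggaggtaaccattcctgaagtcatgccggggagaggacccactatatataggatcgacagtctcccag
Fgg: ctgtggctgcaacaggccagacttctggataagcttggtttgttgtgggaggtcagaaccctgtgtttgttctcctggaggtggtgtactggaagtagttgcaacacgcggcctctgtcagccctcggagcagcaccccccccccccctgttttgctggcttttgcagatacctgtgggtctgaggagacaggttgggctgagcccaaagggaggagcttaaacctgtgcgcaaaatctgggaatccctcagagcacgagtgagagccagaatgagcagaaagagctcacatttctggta
C9: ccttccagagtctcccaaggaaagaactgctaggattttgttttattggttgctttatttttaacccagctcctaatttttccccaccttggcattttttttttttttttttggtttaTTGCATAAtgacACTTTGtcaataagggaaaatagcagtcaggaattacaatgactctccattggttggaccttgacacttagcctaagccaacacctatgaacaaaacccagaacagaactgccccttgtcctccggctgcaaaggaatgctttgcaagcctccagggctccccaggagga
Ahsg: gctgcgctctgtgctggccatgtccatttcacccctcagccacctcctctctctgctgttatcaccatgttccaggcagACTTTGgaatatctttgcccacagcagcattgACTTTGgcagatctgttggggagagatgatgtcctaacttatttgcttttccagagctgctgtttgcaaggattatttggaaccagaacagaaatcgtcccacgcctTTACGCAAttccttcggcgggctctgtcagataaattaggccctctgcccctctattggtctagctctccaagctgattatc
F10: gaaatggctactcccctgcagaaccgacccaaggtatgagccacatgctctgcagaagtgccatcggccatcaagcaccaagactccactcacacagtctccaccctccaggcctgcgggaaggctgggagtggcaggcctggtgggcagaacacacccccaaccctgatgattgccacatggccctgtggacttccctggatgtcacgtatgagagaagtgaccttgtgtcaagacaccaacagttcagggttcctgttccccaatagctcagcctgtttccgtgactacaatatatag
Fga and Fgb each held 1 HNF1, 1 C/EBP and 1 STAT match, C9 held 1 C/EBP and 1 HNF4 match, and Ahsg held 1 C/EBP and 2 HNF4 matches. The Fgg and F10 windows held none of the 4 motifs. No matches to different motifs overlapped in any member window. Over the members, HNF1 matches stood in 10 of 29 windows (34.5%) against 7.1% of all 32851 windows, and C/EBP matches in 11 (37.9%) against 10.8%. HNF4 matches stood in 8 (27.6%) against 14.4%, and STAT matches in 6 (20.7%) against 8.3%. These are matches of letters and carry no test.

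Most members stood lower at 12 and 24 h than in untreated cells. In KO the median over the 28 tested members was -0.36, -0.33 and -0.17 in the 3 untreated replicates and -1.06, -0.81 and -0.48 in those at 24 h. In WT it was -0.43, -0.16 and -0.13 untreated and -1.43, -0.99 and -1.27 at 24 h. In both genotypes each replicate at 24 h thus had a lower median than every untreated replicate. KO 24 h replicate 3 was the highest of its group in 23 of the 28 members, and its arrays belong to range B while the other 2 replicates belong to range C. Its arrays had SDs of 0.36 (Cy3) and 0.40 (Cy5), against 0.70 to 1.39 on those of the other 2 replicates. The part of this spread in its high values was not tested.

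**Figure D1:**
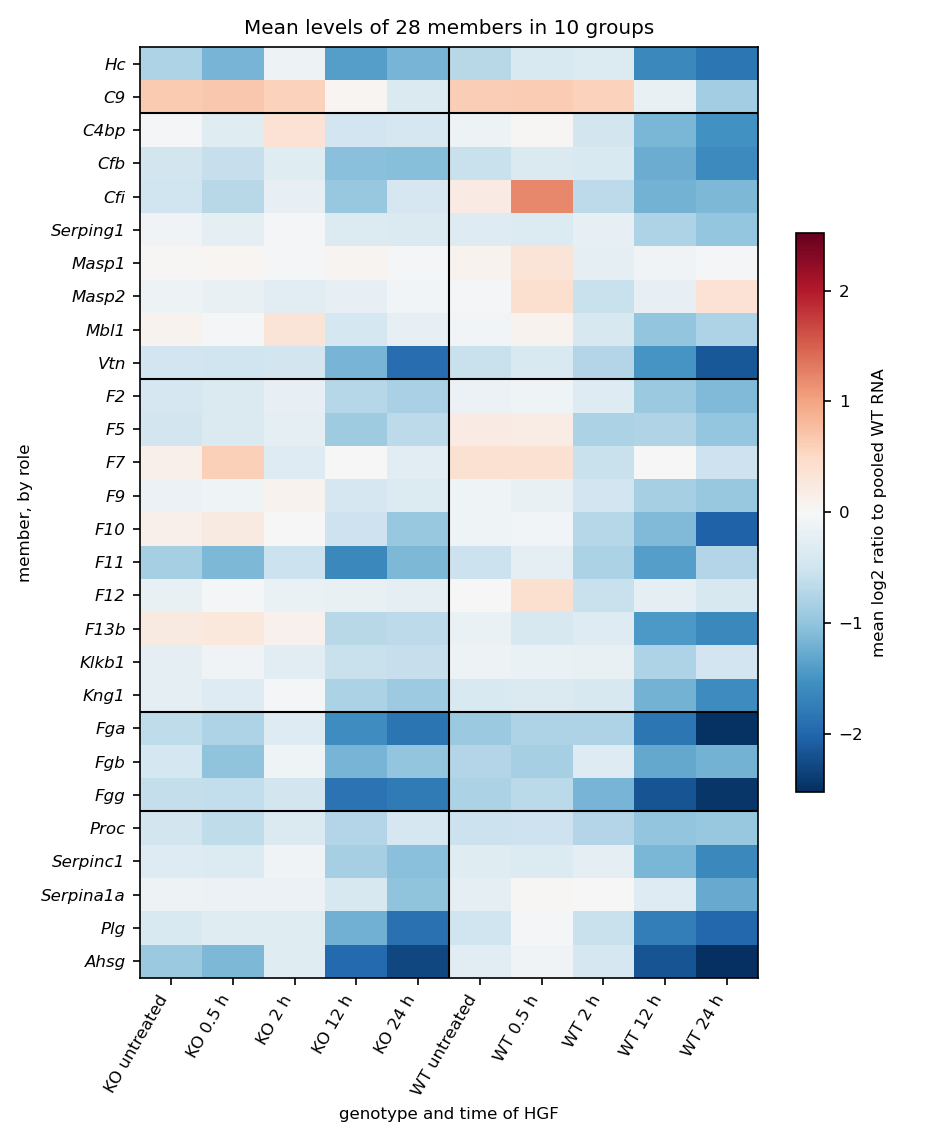
Mean log2 ratio to pooled WT RNA (colour) of the 28 tested members (rows, by role) in the 10 groups (columns, KO left and WT right, each from untreated to 24 h). Most rows are lower at 12 and 24 h than untreated in both genotypes, and Masp1 stays near 0.

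Among the early and terminal complement proteins, C9, which forms the pore of the membrane attack complex, stood above the pool in untreated cells and below it in WT at 12 h. In KO hepatocytes C9 read 0.70, 0.73 and 0.56 untreated, 0.70, 0.59 and 0.76 at 0.5 h, 0.52, 0.44 and 0.76 at 2 h, 0.22, -0.15 and 0.086 at 12 h, and -0.67, -0.53 and 0.098 at 24 h. In WT hepatocytes C9 read 0.65 and 0.58 untreated, 0.48, 0.59 and 0.84 at 0.5 h, 0.44, 0.59 and 0.69 at 2 h, -0.19, -0.20 and -0.18 at 12 h, and -0.81, -0.95 and -0.87 at 24 h, with WT untreated replicate 3 missing. All replicates at 12 and 24 h lay below the untreated replicates of their genotype, and all KO replicates at these times lay above all WT replicates. Hc, the fifth complement component from which the terminal complex starts, ranged from -2.18 to 0.082 over all replicates. Its means at 24 h were -1.17 ± 0.49 in KO and -1.81 ± 0.32 in WT, against -0.78 ± 0.65 in untreated KO and -0.69 ± 0.39 in untreated WT (SD, n = 3 each).

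Among the complement regulators, C4bp is the C4b-binding protein, which inhibits the convertases of the classical and lectin pathways. In KO hepatocytes C4bp read -0.19, -0.17 and 0.26 untreated, -0.38, -0.37 and -0.15 at 0.5 h, 0.29, 0.42 and 0.36 at 2 h, -0.41, -0.69 and -0.36 at 12 h, and -0.66, -0.77 and 0.15 at 24 h. In WT hepatocytes C4bp read -0.44, 0.045 and 0.036 untreated, -0.15, 0.057 and 0.19 at 0.5 h, -0.48, -0.45 and -0.47 at 2 h, -1.28, -1.20 and -0.98 at 12 h, and -2.04, -1.01 and -1.51 at 24 h. The WT replicates at 12 and 24 h lay below the untreated ones, whereas KO 24 h replicate 3 lay within the untreated KO range. KO lay above WT without overlap at 2, 12 and 24 h and below it at 0.5 h. Cfi is the protease that inactivates C3b and C4b. In KO hepatocytes Cfi read -0.68, -0.59 and -0.23 untreated, -0.71, -0.73 and -0.66 at 0.5 h, -0.29, -0.029 and -0.32 at 2 h, -0.73, -1.18 and -0.93 at 12 h, and -0.86, -0.56 and 0.12 at 24 h. In WT hepatocytes Cfi read -0.56, 1.20 and -0.036 untreated, 1.04, 1.27 and 1.34 at 0.5 h, -0.70, -0.73 and -0.52 at 2 h, -1.23, -1.27 and -1.07 at 12 h, and -1.14, -0.99 and -1.26 at 24 h. The 3 WT replicates at 0.5 h were high, as was WT untreated replicate 2, and no KO replicate reached their level. Serping1 is the C1 inhibitor, which also inhibits plasma kallikrein. In KO hepatocytes Serping1 read -0.20, 0.036 and -0.082 untreated, -0.35, -0.36 and -0.012 at 0.5 h, -0.074, -0.031 and 0.015 at 2 h, -0.26, -0.61 and -0.14 at 12 h, and -0.63, -0.28 and -0.16 at 24 h. In WT hepatocytes Serping1 read -0.43, -0.082 and -0.45 untreated, -0.43, -0.46 and -0.12 at 0.5 h, -0.26, -0.012 and -0.36 at 2 h, -0.78, -0.86 and -0.71 at 12 h, and -0.61, -0.87 and -1.42 at 24 h. WT Serping1 lay below its untreated range at 12 and 24 h, and KO and WT overlapped at 24 h through KO replicate 1.

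Vtn is vitronectin, which binds the terminal complement complex and the inhibitor of plasminogen activators. In KO hepatocytes Vtn read -0.55, -0.49 and -0.39 untreated, -0.47, -0.53 and -0.49 at 0.5 h, -0.63, -0.30 and -0.47 at 2 h, -1.01, -1.34 and -1.14 at 12 h, and -2.36, -2.10 and -1.30 at 24 h. In WT hepatocytes Vtn read -0.62 and -0.52 untreated, -0.47, -0.49 and -0.22 at 0.5 h, -0.69, -0.72 and -0.78 at 2 h, -1.53, -1.55 and -1.35 at 12 h, and -2.60, -1.66 and -2.15 at 24 h, with WT untreated replicate 3 missing. In both genotypes all replicates at 12 and 24 h lay below the untreated ones, and the genotypes overlapped each other at 24 h. Mbl1 is mannose-binding lectin A, which starts the lectin pathway. In KO hepatocytes Mbl1 read 0.036, -0.032 and 0.24 untreated, -0.093, -0.15 and 0.07 at 0.5 h, 0.48, 0.13 and 0.37 at 2 h, -0.30, -0.76 and -0.28 at 12 h, and -0.49, -0.28 and 0.14 at 24 h. In WT hepatocytes Mbl1 read -0.24, -0.0065 and 0.048 untreated, 0.11 and 0.054 at 0.5 h, -0.42, -0.48 and -0.30 at 2 h, -1.14, -0.93 and -0.92 at 12 h, and -1.03, -0.66 and -0.65 at 24 h, with WT 0.5 h replicate 2 left out because it was read on 1 dye only. KO lay above WT without overlap at 2, 12 and 24 h. Cfb, factor B of the alternative pathway, ranged from -1.94 to -0.21 over all replicates. Masp1 and Masp2, the proteases carried by mannose-binding lectins, ranged from -0.32 to 0.47 and from -0.63 to 0.70.

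Among the clotting factors, F10 is the protease that, with its cofactor, activates prothrombin. In KO hepatocytes F10 read 0.095, 0.069 and 0.23 untreated, 0.41, 0.013 and 0.25 at 0.5 h, -0.15, -0.018 and 0.13 at 2 h, -0.17, -0.86 and -0.51 at 12 h, and -1.08, -0.99 and -0.80 at 24 h. In WT hepatocytes F10 read -0.26, -0.18 and 0.086 untreated, -0.074, -0.18 and 0.05 at 0.5 h, -0.74, -0.59 and -0.85 at 2 h, -1.21, -1.25 and -0.91 at 12 h, and -2.18, -1.95 and -2.00 at 24 h. The WT replicates were already below their untreated range at 2 h and lowest at 24 h, and all KO replicates lay above all WT replicates at 2, 12 and 24 h. F9 is the factor missing in haemophilia B. In KO hepatocytes F9 read -0.23, -0.26 and 0.032 untreated, -0.15, -0.059 and -0.12 at 0.5 h, 0.10, 0.20 and -0.07 at 2 h, -0.0085, -0.76 and -0.48 at 12 h, and -0.59, -0.48 and 0.024 at 24 h. In WT hepatocytes F9 read -0.19, -0.15 and -0.001 untreated, -0.24, -0.23 and -0.12 at 0.5 h, -0.46, -0.42 and -0.55 at 2 h, -0.97, -0.76 and -0.75 at 12 h, and -1.30, -0.87 and -0.71 at 24 h. WT F9 lay below its untreated range from 2 h on, and KO lay above WT without overlap at 2 and 24 h. F13b is the carrier subunit of the enzyme that crosslinks fibrin. In KO hepatocytes F13b read 0.017, 0.26 and 0.42 untreated, 0.59, 0.061 and 0.14 at 0.5 h, 0.065, 0.03 and 0.20 at 2 h, -0.43, -0.96 and -0.70 at 12 h, and -0.75, -1.10 and -0.11 at 24 h. In WT hepatocytes F13b read -0.26, -0.24 and 0.0065 untreated, -0.57, -0.40 and -0.24 at 0.5 h, 0.19, -0.49 and -0.69 at 2 h, -1.49, -1.47 and -1.40 at 12 h, and -2.24, -1.33 and -1.28 at 24 h. KO F13b lay above WT without overlap at each time but 2 h, where WT replicate 1 was high.

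Kng1 is kininogen, the source of bradykinin and a cofactor of the contact system. In KO hepatocytes Kng1 read -0.34, -0.29 and -0.085 untreated, -0.22, -0.45 and -0.32 at 0.5 h, -0.14, -0.17 and 0.14 at 2 h, -0.69, -1.04 and -0.67 at 12 h, and -1.40, -0.82 and -0.52 at 24 h. In WT hepatocytes Kng1 read -0.52, -0.35 and -0.30 untreated, -0.42, -0.47 and -0.20 at 0.5 h, -0.44, -0.37 and -0.41 at 2 h, -1.17, -1.30 and -1.08 at 12 h, and -1.77, -1.23 and -1.77 at 24 h. In both genotypes Kng1 at 12 and 24 h lay below all untreated replicates. F5 is the cofactor of activated F10. In KO hepatocytes F5 read -0.38, -0.49 and -0.51 untreated, -0.30, -0.36 and -0.44 at 0.5 h, -0.32, -0.075 and -0.31 at 2 h, -0.59, -1.21 and -0.89 at 12 h, and -1.05, -0.61 and -0.35 at 24 h. In WT hepatocytes F5 read -0.11, 0.77 and -0.045 untreated, 0.33, 0.12 and 0.10 at 0.5 h, -0.88, -0.88 and -0.63 at 2 h, -0.82, -0.72 and -0.74 at 12 h, and -0.68, -1.18 and -1.05 at 24 h. WT F5 was low from 2 h on, and in untreated cells and at 0.5 h all KO replicates lay below all WT replicates. F2 is prothrombin. In KO hepatocytes F2 read -0.54, -0.42 and -0.31 untreated, -0.38, -0.46 and -0.26 at 0.5 h, -0.062, 0.025 and -0.58 at 2 h, -0.56, -0.88 and -0.70 at 12 h, and -1.17, -0.81 and -0.47 at 24 h. In WT hepatocytes F2 read -0.39, 0.042 and -0.073 untreated, -0.20, -0.073 and -0.076 at 0.5 h, -0.34, -0.27 and -0.38 at 2 h, -1.03, -0.87 and -0.89 at 12 h, and -1.43, -0.78 and -1.11 at 24 h. All replicates at 12 h lay below the untreated ones of their genotype, and at 24 h this held in WT, while KO 24 h replicate 3 lay within the untreated KO range. The other 4 members of the group are F7, which starts clotting with tissue factor, F11 and F12, proteases of the contact pathway, and Klkb1, plasma prekallikrein. F7 ranged from -1.10 to 0.66, F11 from -1.79 to -0.10, F12 from -0.66 to 0.48 and Klkb1 from -0.91 to 0.035 over all replicates.

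Fga, Fgb and Fgg encode the 3 chains of fibrinogen. At 24 h, Fga read -2.31, -2.19 and -1.01 in KO and -3.31, -2.05 and -2.09 in WT, against -0.68, -0.62 and -0.62 in untreated KO and -0.86, -0.51 and -1.42 in untreated WT. Fgg read -2.52, -2.38 and -0.43 in KO and -3.14, -2.16 and -2.04 in WT at 24 h, against -0.68, -0.48 and -0.63 in untreated KO and -0.78, -0.46 and -1.14 in untreated WT. Fgb read -1.59, -1.20 and -0.18 in KO and -1.43, -0.75 and -1.39 in WT at 24 h, against -0.61, -0.56 and -0.18 in untreated KO and -1.11, -0.56 and -0.51 in untreated WT. All WT replicates of Fga and Fgg at 24 h lay below the untreated ones, whereas Fgb overlapped, and KO 24 h replicate 3 was the highest of its group for each chain.

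Among the anticoagulants, fibrinolytic proteins and other inhibitors, Serpinc1 is antithrombin, the main inhibitor of thrombin and F10. In KO hepatocytes Serpinc1 read -0.54, -0.36 and -0.098 untreated, -0.22, -0.43 and -0.40 at 0.5 h, -0.36, -0.035 and 0.15 at 2 h, -0.69, -0.97 and -0.85 at 12 h, and -1.38, -1.14 and -0.64 at 24 h. In WT hepatocytes Serpinc1 read -0.48, -0.41 and -0.006 untreated, -0.42, -0.38 and -0.23 at 0.5 h, -0.10, -0.077 and -0.51 at 2 h, -1.29, -1.10 and -1.05 at 12 h, and -2.04, -1.35 and -1.5 at 24 h. In both genotypes Serpinc1 at 12 and 24 h lay below all untreated replicates. Plg is plasminogen, the precursor of the enzyme that dissolves fibrin. In KO hepatocytes Plg read -0.53, -0.54 and -0.052 untreated, -0.19, -0.37 and -0.34 at 0.5 h, -0.33, -0.42 and -0.19 at 2 h, -0.84, -1.47 and -1.29 at 12 h, and -2.33, -2.10 and -1.21 at 24 h. In WT hepatocytes Plg read -0.52, -0.18 and -0.78 untreated, -0.057 and -0.018 at 0.5 h, -0.58, -0.58 and -0.53 at 2 h, -1.46, -1.77 and -1.97 at 12 h, and -1.91, -1.53 and -2.48 at 24 h, with WT 0.5 h replicate 1 left out because it was read on 1 dye only. In both genotypes Plg at 12 and 24 h lay below all untreated replicates, and the genotypes overlapped at these times. Ahsg is fetuin-A, a plasma protein that binds calcium phosphate. In KO hepatocytes Ahsg read -1.28, -1.22 and -0.29 untreated, -1.07, -1.25 and -1.07 at 0.5 h, -0.55, -0.27 and -0.12 at 2 h, -2.02, -1.82 and -2.03 at 12 h, and -2.61, -2.53 and -1.71 at 24 h. In WT hepatocytes Ahsg read -1.12, 0.43 and -0.12 untreated, -0.074, -0.22 and 0.043 at 0.5 h, -0.16, -0.45 and -0.68 at 2 h, -2.27, -2.25 and -2.00 at 12 h, and -3.48, -2.07 and -2.00 at 24 h. The untreated values of Ahsg differed widely between replicates in both genotypes, but all replicates at 12 and 24 h lay below them. Proc, the anticoagulant protein C, ranged from -1.29 to -0.064, and Serpina1a, alpha-1-antitrypsin, from -2.13 to 0.062. The Serpina1a probe may also read near-identical Serpina1 copies, from which it could not be told apart.

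**Figure D2:**
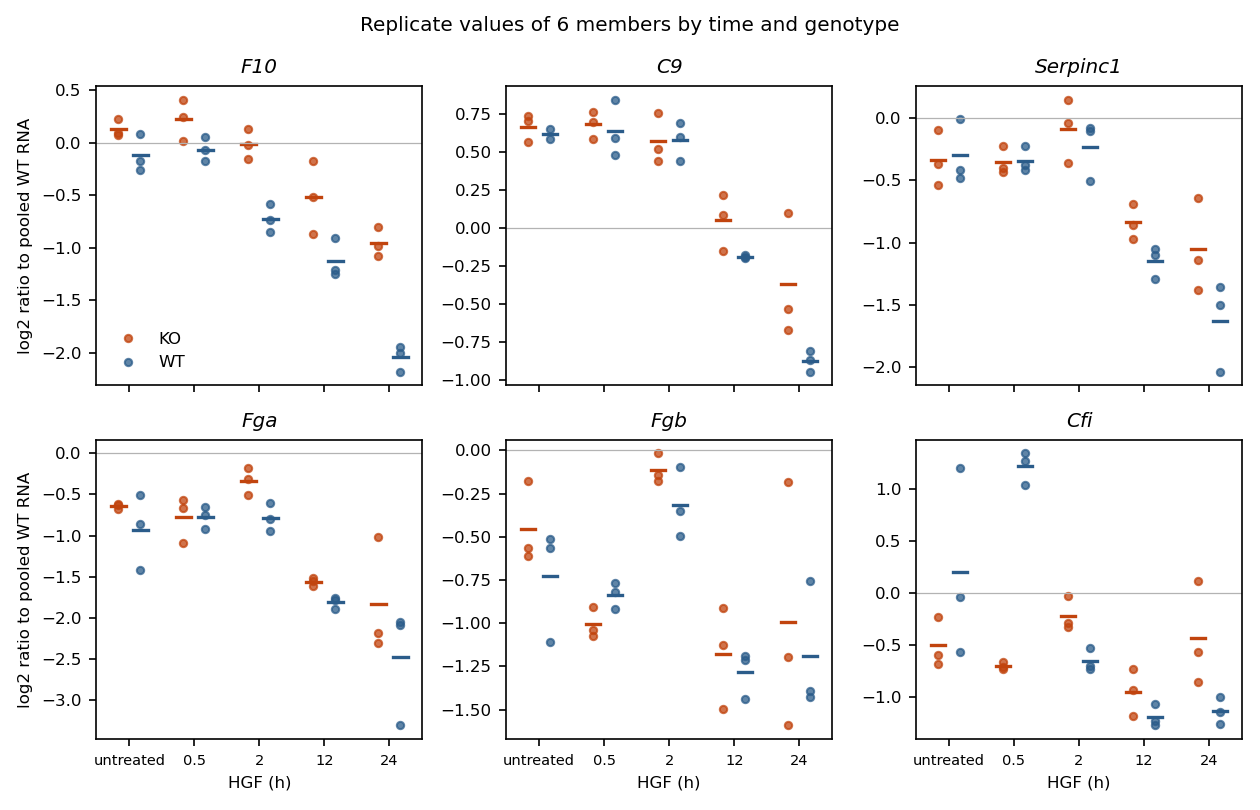
Log2 ratio to pooled WT RNA (vertical axis) of each replicate (points) and the group mean (bars) against time of HGF, KO left of WT at each time, for 6 members. F10 in WT lies below its untreated values from 2 h on, while Fgb at 24 h overlaps its untreated values.

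In WT hepatocytes, HGF for 24 h was accompanied by lower levels across the set. At 24 h, 21 of 28 members were lower and none higher than untreated, where 8.72% of all probes were called in either direction and 4.76% lower. The median change of the members was -1.09, against -0.034 over all tested probes. The largest fall was in Ahsg (-2.24 ± 0.34 SE, 4.74-fold lower, adjusted p = 0.000108), followed by F10 (-1.92 ± 0.15, 3.8-fold, adjusted p = 7.97e-09). By role, both tested core complement proteins fell, with C9 at -1.49 ± 0.17 (2.81-fold, adjusted p = 2.42e-06) and Hc at -1.12 ± 0.24. Among regulators and lectins 6 of 8 fell, Vtn most (-1.57 ± 0.23), then C4bp (-1.40 ± 0.22), Cfi (-1.33 ± 0.27), Cfb (-1.05 ± 0.19), Mbl1 (-0.71 ± 0.16) and Serping1 (-0.65 ± 0.17), while Masp1 (-0.15) and Masp2 (0.42) were not called. Among clotting factors 7 of 10 fell, F10 most and then F13b (-1.45 ± 0.24), Kng1 (-1.20 ± 0.17), F5 (-1.18 ± 0.19), F2 (-0.97 ± 0.17), F7 (-0.91 ± 0.28) and F9 (-0.85 ± 0.17). F11 (-0.18), F12 (-0.40) and Klkb1 (-0.36) were not called. Fga (-1.55 ± 0.28) and Fgg (-1.65 ± 0.34) fell, and Fgb had -0.46 ± 0.24 (adjusted p = 0.292). Of the 5 anticoagulants, fibrinolytic proteins and other inhibitors 4 fell, Ahsg most, then Plg (-1.48 ± 0.24), Serpinc1 (-1.33 ± 0.19) and Serpina1a (-1.03 ± 0.23). Proc had -0.41 and was not called. The adjusted p-values of limma lay between 7.97e-09 and 0.0447 over the 21. With any 1 of the 6 replicates left out, 19 to 22 members were called, but a fit of these 2 groups alone called 2. Within range C, leaving out WT 24 h replicate 2, whose arrays lay in different ranges, kept only replicate 1 of that group. No count is given for that fit. F7 read 0.07 and -1.10 in WT at 24 h, with replicate 2 left out because it was read on 1 dye only, against 0.61, 0.56 and 0.0035 untreated. The call of F7 was lost without WT untreated replicate 1 or 2 or WT 24 h replicate 2 or 3, with values of -1.49 to -0.32. That of Serping1 was lost without WT untreated replicate 2 or WT 24 h replicate 3, with values of -0.83 to -0.42.

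At 12 h, 19 of 28 members were lower in WT and none higher, where 5.81% of all probes were called and 3.16% lower. All 28 differences lay below 0, with a median of -0.82 against 0.017 over all probes. Ahsg (-1.90 ± 0.34), Cfi (-1.39 ± 0.27), Fgg (-1.37 ± 0.34), F13b (-1.29 ± 0.24) and Plg (-1.24 ± 0.24) fell most. F10 had -1.0 ± 0.15 (adjusted p = 0.00031), and C4bp -1.04 ± 0.22 (adjusted p = 0.00584). Klkb1 (-0.66 ± 0.14) and F11 (-0.84 ± 0.25) were lower at 12 h and not called at 24 h, while Serpina1a (-0.089) was not called at 12 h. The call of F11 was lost in 5 of 6 fits that left out 1 replicate (-1.14 to -0.61), and that of Klkb1 without WT 12 h replicate 1 or 2 (-0.72 to -0.59). Calls of other members were also lost in these fits: Hc in 5, Cfb in 4, Vtn and Fgg in 3 each, F9 in 2 and Serpinc1 in 1. Without WT 12 h replicate 1 the count was 12. It was 9 with arrays scaled to equal spread, 6 within range C, and 5 either on Cy5 arrays alone or in a fit of the 2 groups.

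The early times held few changes. No member was called at 0.5 h in WT, where 0.123% of all probes were called. An unadjusted p under 0.05 was found in 3, and the share of all probes at that cut is not given here. At 2 h F5 was lower (-1.0 ± 0.19, 2.01-fold, adjusted p = 0.0147), with 0.446% of probes called and 0.322% lower. F7 (-0.96) and F10 (-0.61) did not pass at 2 h (adjusted p = 0.0892 and 0.0667). The count was 7 with the sign of the unsettled WT array turned, 4 without WT untreated replicate 3 and 11 with arrays scaled. It was 0 without WT untreated replicate 2 or WT 2 h replicate 1 or 2. The share of all probes called under these alternatives is not given here. The 2 h and untreated arrays of WT lay in different number ranges, with the range as a term the count was 0, and no comparison within a range was possible at 0.5 or 2 h.

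In KO hepatocytes at 24 h, 10 of 28 members were lower and none higher than untreated KO, where 3.48% of all probes were called and 2.94% lower, and the median change was -0.39 against -0.00075 over all probes. Called were Plg (-1.51 ± 0.24, 2.84-fold), Vtn (-1.44 ± 0.20, 2.72-fold), Ahsg (-1.35 ± 0.34), Fga (-1.20 ± 0.28), F10 (-1.09 ± 0.15, adjusted p = 0.000249), C9 (-1.03 ± 0.15, adjusted p = 0.000391), Serpina1a (-0.89 ± 0.23), F13b (-0.89 ± 0.24), Serpinc1 (-0.72 ± 0.19) and Kng1 (-0.67 ± 0.17). All 10 were among the 21 of 28 lower in WT, which is 100% of the KO list and 47.6% of the WT list. These lists share no samples, but both come from 1 fit with a shared spread per probe. The overlap over all tested probes is not given here, so no conclusion is drawn from that of the members. Plg had -1.51 in KO and -1.48 in WT, and Vtn -1.44 and -1.57. Cfi (0.068 ± 0.27), F5 (-0.21 ± 0.19), F9 (-0.20 ± 0.17), Serping1 (-0.28 ± 0.17), Mbl1 (-0.29 ± 0.16), C4bp (-0.39 ± 0.22), F2 (-0.39 ± 0.17), Cfb (-0.60 ± 0.19), F7 (-0.40 ± 0.25), Hc (-0.39 ± 0.24) and Fgg (-1.18 ± 0.34, adjusted p = 0.0556), which had fallen in WT, did not pass in KO. C9, Vtn, F10 and Plg were called with any of the 6 replicates left out, and the count ranged from 4, without KO untreated replicate 2 or KO 24 h replicate 1, to 15 without KO 24 h replicate 3. It was 5 without any other of the 6 and on Cy5 arrays alone, 3 on Cy3 arrays alone, 6 within range C, and 0 in a fit of the 2 groups.

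No KO member was called at 12 h, where 0.13% of all probes were called. An unadjusted p under 0.05 was found in 18 members, and the share of all probes at that cut is not given here. Of the 28 differences 26 lay below 0, with a median of -0.52 against 0.015 over all probes. Fgg (-1.26 ± 0.34, adjusted p = 0.146), Ahsg (-1.03 ± 0.34) and F13b (-0.93 ± 0.24) had the largest differences, and F10 had -0.65 ± 0.15 (adjusted p = 0.0893). The count at 12 h was 12 with arrays scaled to equal spread and 10 with weights from each group's own spread, all lower. The share of all probes called in these fits is not given here, so no conclusion about the members is drawn from them. No member was called in KO at 0.5 h (0.00686% of probes called) or at 2 h (0.0343%), with 1 member at an unadjusted p under 0.05 at each.

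**Figure D3:**
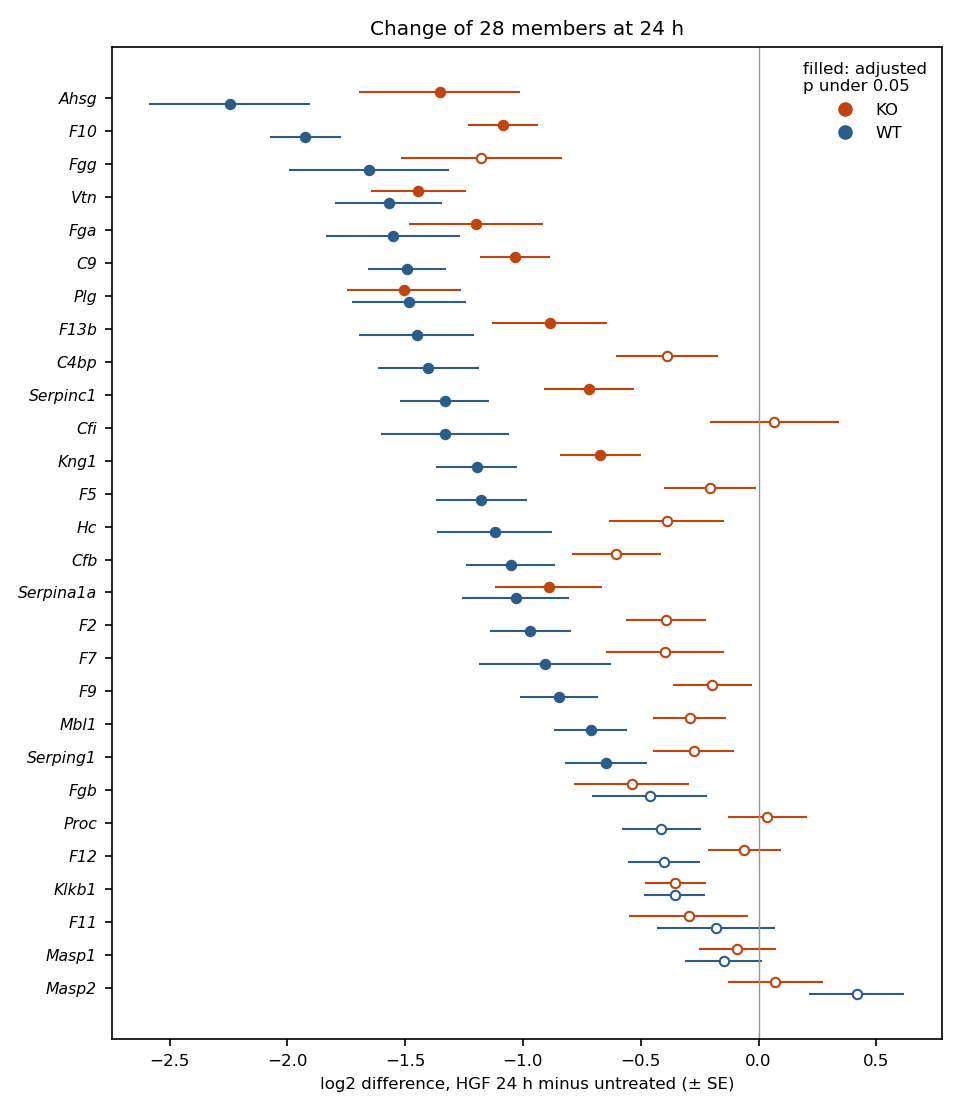
Log2 difference of HGF at 24 h from untreated (horizontal axis, ± SE) for the 28 members, KO above WT in each row, with filled points for an adjusted p under 0.05. Filled points number 10 in KO and 21 in WT, and all lie left of 0.

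Markers of hepatocytes moved with the members in part. In KO at 12 h none of 5 was called, with a median of -0.006 (-1.01 to 0.034) against -0.52 for the members. In WT at 12 h their median was -0.65 (-1.50 to 0.12) against -0.82. As ratios to a hepatocyte pool these values cannot show whether a marker is absent. Of 5 tested markers 3 were lower at 24 h both in KO (Ttr -1.19, Apoa1 -1.06, Asgr1 -1.31) and in WT (Ttr -1.32, Apoa1 -1.60, Asgr1 -2.28). The other 2 were not called, and the smallest change among the 5 was -0.083 in KO and -0.061 in WT. The mean of the 5 markers ranged over replicates from -1.07 to -0.50 in KO at 24 h and from -1.29 to -0.89 in WT at 24 h, against -0.20 to 0.15 in untreated KO and -0.28 to 0.11 in untreated WT. Of 4 Kupffer cell markers, Marco was lower at 24 h in both genotypes and Mpeg1 in WT (-1.52), and Col3a1 of 2 stellate cell markers was lower in both. Of 5 bile duct markers, Krt7 was higher in WT at 24 h (0.61) and Cftr lower (-1.09), and none of 3 endothelial markers was called. The mean of the 4 Kupffer markers ranged from -0.42 to -0.14 in KO and from -0.81 to -0.46 in WT at 24 h, against -0.069 to 0.010 in untreated KO and -0.26 to 0.085 in untreated WT. In WT at 12 h Apoa1 (-1.06), Asgr1 (-1.50), Mpeg1 (-1.02), Col3a1 (-0.80) and Cftr (-1.15) were lower and Krt7 (0.69) higher. The part of these shifts in the members' differences was not tested.

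Set against each other at the same time, KO and WT gave no called member before HGF. In untreated cells no member was called, where 0.0617% of all probes were called. An unadjusted p under 0.05 was found in 2, and the share of all probes at that cut is not given here. The largest differences, Cfi (-0.70 ± 0.27) and F5 (-0.67 ± 0.19), did not pass (adjusted p = 0.835 and 0.459). After 0.5 h Cfi was lower in KO (-1.92 ± 0.27, 3.78-fold, adjusted p = 0.000458), and so was F11 (-0.89 ± 0.25, adjusted p = 0.0439), with 4.3% of probes called and 2.3% lower. For Cfi, the difference was -0.24 on Cy5 arrays and -3.60 on Cy3 arrays. The Cy3 arrays at 0.5 h had SDs of 0.64 to 0.90 in KO and 0.38 to 0.40 in WT, and the part of this was not tested. The F11 call was lost whichever of the 6 replicates was left out, and no member was called on Cy5 arrays alone. The count was 7 to 9 with weights or number range as a term, within range D or in a fit of the 2 groups. Of these members, 6 to 8 were lower. The share of all probes called in these fits is not given here, so no conclusion about the members is drawn from them. Of the 28 differences at 0.5 h, 19 lay below 0, with a median of -0.15 against -0.037 over all probes. On Cy5 arrays 10 lay below 0 and on Cy3 arrays 24. Ahsg (-1.05 ± 0.34, adjusted p = 0.0765) and Hc (-0.80 ± 0.24, adjusted p = 0.0589) had all KO replicates below all WT replicates and did not pass. The stellate cell gene Dcn (-1.13 ± 0.22) and the bile duct gene Cftr (-1.17 ± 0.27) were also lower in KO at 0.5 h, and their part in these differences was not tested.

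At 2 h Mbl1 (0.72 ± 0.16, 1.65-fold, adjusted p = 0.0385) and F10 (0.71 ± 0.15, 1.64-fold, adjusted p = 0.0331) were higher in KO, with 0.432% of probes called and 0.316% higher. C4bp had 0.82 ± 0.22 and did not pass (adjusted p = 0.0907). At 12 h F10 was higher in KO (0.60 ± 0.15, 1.52-fold, adjusted p = 0.0247), with 2.84% of probes called and 1.29% higher, while Mbl1 (0.55 ± 0.16, adjusted p = 0.0539) missed. Of the 28 differences, 25 at 2 h and 24 at 12 h lay above 0, as did 53.2% and 49.9% of all probes. The member medians were 0.26 and 0.24, against 0.017 and -0.00067 over all probes. The count at 2 h was 6 to 7, all higher in KO, with arrays scaled, with weights, within range D or in a fit of the 2 groups. It was 0 without KO 2 h replicate 3 or any WT 2 h replicate and 1 without either other KO replicate. At 2 and 12 h it was 0 on either dye alone. The share of all probes called under these alternatives is not given here, so no conclusion about the members is drawn from them. At 12 h the call of F10 was lost without KO 12 h replicate 1 or 3 or WT 12 h replicate 1 or 2, within range C, and with the sign of the unsettled WT array turned. Of the markers, Dnase1l3 was lower in KO at 12 h (-1.32 ± 0.23), and its part in the difference of F10 was not tested.

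At 24 h, 7 of 28 members were higher in KO and none lower, where 4.77% of all probes were called and 2.41% higher. They were C4bp (1.10 ± 0.22, 2.14-fold, adjusted p = 0.00248), F10 (1.08 ± 0.15, 2.12-fold, adjusted p = 5.38e-05), F13b (0.96 ± 0.24, 1.95-fold), Kng1 (0.68 ± 0.17), Serping1 (0.61 ± 0.17), F9 (0.61 ± 0.17) and Mbl1 (0.57 ± 0.16). F10 averaged -0.96 ± 0.14 in KO and -2.04 ± 0.12 in WT, and C4bp averaged -0.42 ± 0.50 in KO and -1.52 ± 0.51 in WT (SD, n = 3 each). The median difference was 0.52 against 0.0049 over all probes, and 25 of 28 lay above 0. C9 (0.51 ± 0.15, adjusted p = 0.052) lay just above the threshold and Serping1 (adjusted p = 0.0421) just below it. Masp2 (-0.43), F11 (-0.41) and Klkb1 (-0.097) lay below 0 and were not called. Of the markers, Asgr1 (0.80), Mpeg1 (1.23) and the platelet gene Gp9 (0.56) were also higher in KO at 24 h and the endothelial gene Dnase1l3 (-0.89) and Krt7 (-0.55) lower, and their part in these differences was not tested. F10 and C4bp were called with any of the 6 replicates left out, but the count was 2 without KO 24 h replicate 3, 3 without WT 24 h replicate 1 and 12 without KO 24 h replicate 1. It was 11 with the number range as a term, 3 with arrays scaled, 1 (F10) within range C or with weights, and 0 on Cy3 arrays alone or in a fit of the 2 groups.

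Averaged over the 5 times with equal weight, 7 of 28 members were higher in KO and none lower, where 10.1% of all probes were called and 5.01% higher. This comparison uses all 30 replicates, those of 24 h among them. The members were F13b (0.64 ± 0.11, 1.56-fold, adjusted p = 0.000262), F10 (0.59 ± 0.067, 1.5-fold, adjusted p = 1.9e-06), C4bp (0.47 ± 0.096), Mbl1 (0.37 ± 0.071), F9 (0.32 ± 0.075), Kng1 (0.32 ± 0.077) and Serping1 (0.31 ± 0.077). Their adjusted p-values lay between 1.9e-06 and 0.00934, and each was called with any 1 of the 30 replicates left out. Proc (0.23 ± 0.075, adjusted p = 0.0547) and F11 (-0.31 ± 0.11, adjusted p = 0.0802) did not pass. On Cy3 arrays alone the count was 1. On average Asgr1 (0.38) and Mpeg1 (0.36) were also higher in KO and Dnase1l3 (-0.48) and Cftr (-0.39) lower, and their part in these differences was not tested.

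**Figure D4:**
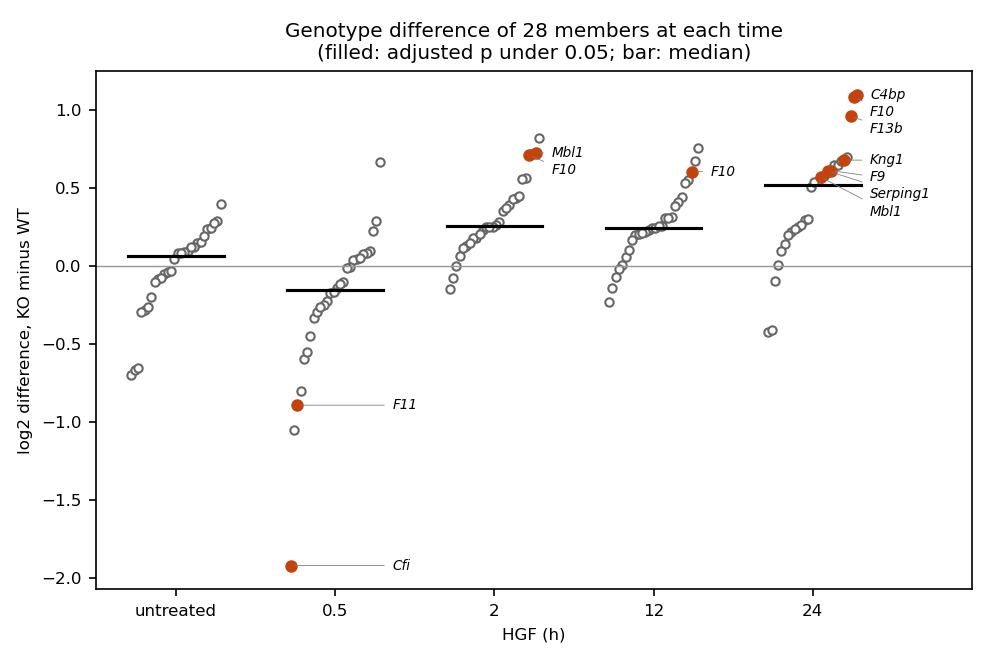
Log2 difference KO minus WT (vertical axis) of the 28 members at each time, with filled, named points for an adjusted p under 0.05 and a bar at the median. The cloud lies around 0 in untreated cells, mostly below 0 at 0.5 h and mostly above 0 at 2, 12 and 24 h.

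Whether the responses to HGF themselves differed between the genotypes was tested as the KO change minus the WT change. No member was called at 0.5 h (0.00686% of probes called), 2 h (0.0274%), 12 h (0.0754%) or 24 h (0.727%), by limma with Benjamini-Hochberg adjustment. Unadjusted p-values under 0.05 were found in 2, 7, 2 and 9 members at these times, and the shares of all probes at that cut are not given here. At 24 h, 24 of 28 differences lay above 0 with a median of 0.45 against 0.00067 over all probes. F10 (0.84 ± 0.21, adjusted p = 0.0662), Cfi (1.40 ± 0.39, adjusted p = 0.102), F5 (0.97 ± 0.27, adjusted p = 0.114) and C4bp (1.01 ± 0.30, adjusted p = 0.143) had the smallest. Plg (-0.022 ± 0.34) and Vtn (0.13 ± 0.30) were close to 0. The larger number of members called in WT than in KO was thus not matched by a called difference in any single member, and the alternatives called at most 1 member at 24 h, 3 at 2 h, 2 at 0.5 h and 0 at 12 h. Of the markers, Krt7 was called at 24 h (-0.97 ± 0.17).

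Read as sample over pool on both dyes, most members were lower in WT on each orientation, at 12 h less so on Cy5 arrays. The dyes cannot check that reading. At 24 h, 26 of 28 members lay below 0 on Cy5 arrays and 26 on Cy3 arrays (medians -1.03 and -1.18). For F10 the change was -2.00 on Cy5 and -1.84 on Cy3 arrays, and for C9 it was -1.75 and -1.23. At 12 h it was 23 and 28 of 28, with medians of -0.42 and -1.22. Over all tested probes the differences on Cy5 and Cy3 arrays correlated at 0.161 in WT at 24 h, at -0.161 in WT at 12 h and at 0.233 for KO minus WT at 24 h, a description of arrays that share cultures. KO minus WT at 24 h lay above 0 on both orientations in 20 members, with medians of 0.60 and 0.28. Before HGF the orientations went apart, with 6 of 28 members lower in KO on Cy5 arrays and 21 on Cy3 arrays. If the Cy3 arrays ran the other way, 39 of the 70 member calls would change sign and the count in WT at 24 h would be 1.

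**Figure D5:**
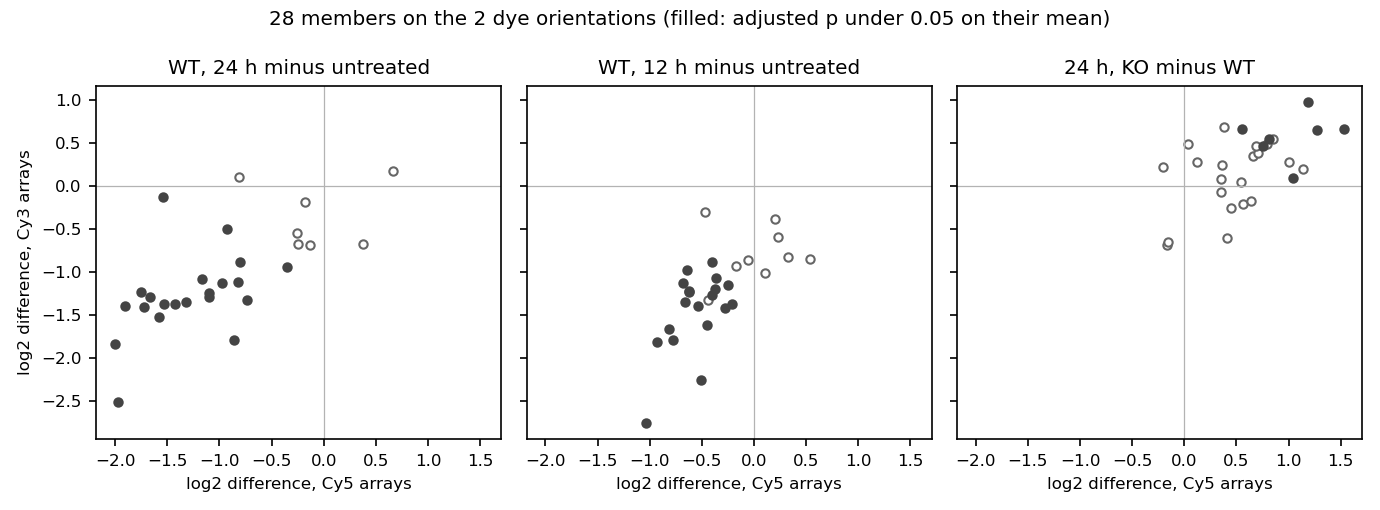
Log2 difference on Cy3 arrays (vertical axis) against that on Cy5 arrays (horizontal axis) for the 28 members in 3 comparisons, with filled points for an adjusted p under 0.05 on their mean. Most points of WT at 24 h lie below 0 on both orientations.

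Of the 5 members that were measured too rarely to be tested, C4b, C6, Mbl2 and Serpinf2 had no WT replicate at 2 h with values on both dyes. C6, a protein of the terminal complex, read 0.79, 0.41 and 0.48 in KO at 12 h and -0.43, -0.39 and -0.45 in WT at 12 h. At 24 h it read 0.18, 0.22 and 1.31 in KO and -1.28, -0.68 and -0.61 in WT, so that the genotypes did not overlap at either time. They did not overlap at 0.5 h either (0.65, 0.79 and 1.04 in KO, -0.022, 0.32 and 0.27 in WT), but did in untreated cells. Mbl2, mannose-binding lectin C, read 0.53, 0.16 and 0.32 in KO and -1.15, -1.27 and -0.85 in WT at 12 h, again without overlap. Mbl2 was apart already in untreated cells (-0.028 and -0.045 in KO, -0.95 and -0.355 in WT, replicate 3 left out). The same held at 0.5 h (0.0745, -0.0255 and 0.0965 in KO, -0.3495, -0.2925 and -0.1845 in WT). Serpinf2, alpha-2-antiplasmin, read -0.62, -1.25 and -0.26 in KO and -1.84, -1.16 and -1.68 in WT at 24 h, against -0.0025 and -0.19 in untreated KO (replicate 3 read on 1 dye only) and -0.46, 0.32 and -0.50 in untreated WT. The genotypes overlapped at 24 h. C4b, an early complement protein, ranged from -0.74 to 2.52, and Serpind1, heparin cofactor II, from -0.93 to -0.29. For Serpind1 only the 2 h replicates and 1 untreated KO replicate had values on both dyes. These values carry no test.

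Of 50 other genes of the pathways, 38 had a probe and 28 were tested. In WT at 24 h 5 were lower: C1ra (-0.99 ± 0.18), a protease of the first complement component, C8g (-1.47 ± 0.22), Mug1 (-1.56 ± 0.25), Hrg (-0.99 ± 0.27) and Vkorc1 (-0.53 ± 0.16), the vitamin K reductase. Fcna (0.65 ± 0.16) and Plaur (1.5 ± 0.48), the urokinase receptor, were higher. C1ra, C8g, Mug1 and Hrg were also lower in KO at 24 h and none was higher. C8g, Mug1, Hrg and Vkorc1 were lower in WT at 12 h, Hgfac, the activator of HGF, was lower in WT at 2 h (-0.89 ± 0.15), and none was called in the other comparisons with untreated cells. Between genotypes, Tfpi2 was lower in KO at 0.5 h (-1.74 ± 0.26), at 24 h (-1.0 ± 0.26) and on average (-0.84 ± 0.12). Pros1, the cofactor of protein C, was higher in KO at 24 h (0.84 ± 0.24). At 0.5 h C2 (1.15 ± 0.32) and F2r (0.63 ± 0.16) were higher and Clu (-0.79 ± 0.19) lower in KO, on average F2r was higher (0.45 ± 0.072) and Lman1 lower (-0.26 ± 0.072), and none was called in untreated cells or at 2 or 12 h.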

How the data were processed

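Dual-colour arrays of primary mouse hepatocytes were read as deposited. Per the labels, sample and pool RNA were exchanged between the dyes of paired arrays. The deposited values are log ratios with array medians of -0.154 to 0.144, and they were read as log2 ratios of sample over pool. Their normalization, log base and numerator are not given in the sources used here. The median of every array was subtracted, and the values of a replicate's 2 arrays were averaged, with the replicate left out where 1 was missing. Testing required values on both dyes for 2 or more of the 3 replicates of each of the 10 groups (14580 of 21997 probes). A single fit over the 10 groups used limma 3.58.1 in R 4.3.3 (lmFit, contrasts.fit and eBayes), with Benjamini-Hochberg adjustment over all tested probes in each of 18 comparisons, and probes were called at an adjusted p under 0.05. A ± beside a difference is its SE. Genes were named from the platform annotation, where 16076 probes had 1 symbol, 288 several and 5633 none. Named were the members and the called genes of the other lists. The members and lists were chosen with earlier results of these data known. Alternatives changed centring, scaling, filter, dye, sign, weights (statmod 1.5.0), samples in the fit, replicate block and the range of array numbers. The fit was tested on simulated data. HGF times follow the titles where the treatment field differs.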

Additional observations from a re-analysis of the deposited data

How the results depend on the processing

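Values are counts of members called out of 28, as reported and then under alternatives that changed them more than 1.5-fold or to or from 0. Ranges with 1 replicate left out are added. An alternative not listed for a comparison left its count within 1.5-fold or could not be fitted. The share of all probes called under each alternative is not given here, so no conclusion about the members is drawn from a changed count. For HGF in WT, the count at 24 h (21) was 1 with the sign of the Cy3 arrays turned, 2 in a fit of the groups compared alone, and 19 to 22 with 1 replicate left out. At 12 h (19) it was 9 with arrays scaled to equal spread, 5 on Cy5 arrays alone, 4 with the Cy3 sign turned (all higher), 5 in a fit of the groups compared, 6 within number range C, and 12 to 19 with 1 replicate left out. At 2 h (1) it was 11 with scaling, 7 with the sign of the unsettled WT array turned, and 4 without both WT untreated replicate 3 and KO 24 h replicate 2, an alternative chosen after seeing the data. It was 0 on Cy5 arrays alone, with the Cy3 sign turned, in a fit of the groups compared and with number range as a term, and 0 to 4 with 1 replicate left out. At 0.5 h (0) it was 1 with scaling and 0 to 2 with 1 replicate left out, the 2 without WT untreated replicate 2.

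For HGF in KO, the count at 24 h (10) was 5 on Cy5 arrays alone, 3 on Cy3 arrays alone, 0 with the Cy3 sign turned or in a fit of the groups compared, 6 within range C, 5 without the 2 doubted replicates, and 4 to 15 with 1 replicate left out. At 12 h (0) it was 12 with scaling, 10 with weights, 2 in a fit of the groups compared, 1 on Cy5 arrays alone, with number range as a term or without the 2 doubted replicates, and 0 to 1 with 1 replicate left out. At 2 h (0) it was 0 to 1 with 1 replicate left out.

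For KO against WT, the count at 24 h (7) was 3 with scaling, 0 on Cy3 arrays alone, with the Cy3 sign turned or in a fit of the groups compared, 1 with weights or within range C, 11 with number range as a term, and 2 to 12 with 1 replicate left out. At 12 h (1) it was 2 without centring, with 1 orientation enough, in a fit of the groups compared or without the 2 doubted replicates, 4 with weights, 3 with number range as a term, and 0 to 2 with 1 replicate left out. It was 0 there with scaling, on either dye alone, with either sign turned and within range C. At 2 h (2) it was 6 with scaling, in a fit of the groups compared or within range D, 7 with weights, 4 with number range as a term, 1 with 3 of 3 replicates required or the unsettled array turned, 0 on either dye alone or with the Cy3 sign turned, and 0 to 1 with 1 replicate left out. At 0.5 h (2) it was 1 without centring, with scaling, with 1 orientation enough or with any 1 replicate left out, 0 on Cy5 arrays alone, 7 on Cy3 arrays alone or with number range as a term, 8 with weights or in a fit of the groups compared, 9 within range D, and 5 without the 2 doubted replicates. The mean over times (7) gave 11 with scaling, 1 on Cy3 arrays alone, 0 with the Cy3 sign turned, and 7 to 9 with 1 replicate left out. For the difference of responses (0 at each time), 24 h gave 1 without centring, on Cy5 arrays alone, with number range as a term, and 0 to 1 with 1 replicate left out. At 2 h it gave 3 with scaling and 1 with weights, and at 0.5 h 0 to 2 with 1 replicate left out. The causes were not tested.

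The sign of single members turned under 1 alternative, the turned Cy3 arrays, in 39 of 70 calls. In WT at 12 h the values were then Hc 0.30, C9 0.17, C4bp 0.59, Cfb 0.45, Cfi 0.88, Mbl1 0.30, Vtn 0.23, F2 0.58, F5 0.43, F9 0.36, F10 0.35, F11 0.43, F13b 0.51, Klkb1 0.25, Kng1 0.41, Fgg 0.44, Serpinc1 0.57, Plg 0.42 and Ahsg 0.86. In WT at 24 h they were Cfb 0.080, Cfi 0.47, Serping1 0.30, F2 0.15, F5 0.072, F9 0.044, Kng1 0.10, Serpinc1 0.016, Serpina1a 0.30 and Ahsg 0.27, and in WT at 2 h F5 0.58. In KO at 24 h they were Vtn 0.017, Fga 0.10 and Serpina1a 0.067. For KO against WT they were Cfi 1.68 and F11 0.59 at 0.5 h, Mbl1 -0.22 and F10 -0.24 at 2 h, F10 -0.019 at 12 h and Serping1 -0.055 at 24 h.

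Replicate numbers did not pair the samples: 10 of 30 replicates correlated best with a replicate of their own number, and same-numbered pairs correlated from -0.252 to 0.667, 10 of 60 above 0.1. With a replicate block the WT 12 h count was 18 in place of 19, and the count was the same as reported in the other 17 comparisons. Range C holds WT 24 h replicate 2, whose Cy3 array lies in range B. Without it, an alternative chosen after seeing the data, range C held 1 WT replicate at 24 h, so no counts are given for that alternative. Comparisons within a number range were not possible for HGF at 0.5 and 2 h, the responses at those times or the mean. The number of arrays limits the precision. In simulated data of the WT 24 h comparison, 11 of 50 probes changed by 0.5 on the log2 scale were called. So were 72 of 100 changed by 1, 49 of 50 changed by 2 and 6 of 14380 unchanged ones. The simulation left most of its 14580 probes unchanged, whereas 8.72% were called in the data, so its rates need not hold for them.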
